A study of Mus musculus with 2 samples.

Results

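Sox and forkhead transcription factors were followed in mouse embryoid bodies given FGF10, a secreted fibroblast growth factor. The members were all genes of the array annotation whose symbol has the form of a Sox or Fox family gene, leaving out Sox2, Sox17, Foxa1, Foxa2, Foxa3 and Foxh1. This gave 50 of the 18193 genes with a probe set of their own, 17 of them Sox and 33 Fox genes, each read by the probe set with the highest mean signal. Embryoid bodies, clusters of stem cells that start to form embryonic lineages in suspension, were formed in hanging drops from CGR8 embryonic stem cells of strain 129. The stem cells had been grown without feeder cells in serum and leukemia inhibitory factor. The 1 control sample had differentiation medium alone and the 1 treated sample had the same medium with recombinant FGF10 at 100 ng/ml. The labels place RNA extraction on day 2, whereas the design text places treatment at 2 days and RNA collection 24 hours later, so the stage carries that uncertainty.

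Sox proteins bind DNA through an HMG box and forkhead proteins through a winged-helix domain, and both families are divided into lettered subfamilies by sequence. In early embryos SoxB1 factors maintain pluripotent and neural progenitor states, SoxF factors act in endoderm and vessels, and SoxC factors are common in progenitors that begin to differentiate. Among forkhead factors, Foxd3 maintains the epiblast and the neural crest, while FoxO factors are kept out of the nucleus by Akt downstream of growth factor receptors.

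With 1 array per group there is no test, no p-value and no replicate check, and the number of arrays limits the precision. Every ratio is given as log2 of FGF10 over control, centred on the array pair, and describes these 2 arrays alone. Signals of different probe sets are not compared as amounts of RNA, since each probe set has its own brightness. The pluripotency factors Pou5f1 (0.07), Nanog (0.22) and Sox2 (-0.0026) had signals between 5813 and 8787 on both arrays, so markers of the labelled stem cells were present. Of the 6 pluripotent markers Zfp42 (-0.71), Utf1 (-0.73) and Dppa4 (-0.97) were at least 1.5-fold lower. Of all genes passing the signal filter, 4.86% were. Of 7 fibroblast markers, Thy1 (369 and 248) and Col1a2 (137 and 120.5) passed the signal filter, Lum (45.8 and 22.5) and Col3a1 (25.5 and 39.8) did not, and Col1a1, Dcn and Postn had signals of at most 9.4. The summed signal of the 7 was 600 without and 452 with FGF10.

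The SoxC genes Sox4, Sox11 and Sox12 were higher with FGF10 on every probe set that passed the signal filter, and the 250 bases before their transcription start are shown because all genes of this subfamily had ratios above 0. The windows are from RefSeq on GRCm38.p6, written on the strand of the gene, which is the minus strand for all 3. They lie at chr13:28953700-28953949 for Sox4, chr12:27342719-27342968 for Sox11 and chr2:152398047-152398296 for Sox12. Capitals mark matches on either strand to the GC box GGGCGG, the CCAAT box CCAAT, the Sox and Tcf core ACAAAG, the forkhead core GTAAACA or the TATA box core TATAAA.
Sox4: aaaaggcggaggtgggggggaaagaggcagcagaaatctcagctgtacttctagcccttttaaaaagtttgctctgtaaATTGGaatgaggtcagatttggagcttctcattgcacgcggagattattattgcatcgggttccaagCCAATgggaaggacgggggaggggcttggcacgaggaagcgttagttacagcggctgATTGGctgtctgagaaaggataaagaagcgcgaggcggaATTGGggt
Sox11: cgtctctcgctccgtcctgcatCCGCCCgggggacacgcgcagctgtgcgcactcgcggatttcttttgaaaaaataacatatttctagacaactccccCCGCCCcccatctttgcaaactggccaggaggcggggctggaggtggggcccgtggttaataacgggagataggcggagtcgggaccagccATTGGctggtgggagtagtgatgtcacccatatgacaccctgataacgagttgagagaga
Sox12: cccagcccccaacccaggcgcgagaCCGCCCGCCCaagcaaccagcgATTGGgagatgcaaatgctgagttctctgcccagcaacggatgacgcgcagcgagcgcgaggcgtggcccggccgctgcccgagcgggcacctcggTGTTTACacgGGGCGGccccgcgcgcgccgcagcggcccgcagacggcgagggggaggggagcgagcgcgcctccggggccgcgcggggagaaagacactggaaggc
The CCAAT box occurred 4 times before Sox4, and 1 time each before Sox11 and Sox12, and 33.8% of all 32851 windows of this length hold it. The GC box occurred 2 times before Sox11 and 3 times before Sox12, where a pair of matches overlaps, and was not found before Sox4, against 32.7% of all windows. A forkhead core lies 107 bases before the start of Sox12, and 3.17% of all windows hold one. Neither the TATA box core, in 12.4% of all windows, nor ACAAAG, in 16.5%, was found in these windows. The GC content was 50.8% for Sox4, 58% for Sox11 and 74.4% for Sox12, beside a median of 52.4% over all windows. Among the 41 windows of members, which include these 3, the median GC content was 60.8%. Of those 41, 43.9% hold the CCAAT box, 56.1% the GC box and 2.44% the forkhead core. The TATA box core is in 4.88% of them and ACAAAG in 24.4%. The matches are letters in a window and do not show binding. Of the 50 members, 33 had a window in the table.

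Of the 50 members, 22 had a signal above the median of both arrays, 6 above the median of 1 array and 22 above neither. The control array had a median of 75.7 and the FGF10 array one of 77.9. The 22 members are 44% of the list, while 58.6% of all genes lay above both medians. They comprised 7 of 17 Sox genes (Sox3, Sox4, Sox7, Sox11, Sox12, Sox13 and Sox18) and 15 of 33 Fox genes. The forkhead genes are given here by block of subfamilies, a grouping set by hand and not tested. In the subfamilies J, K, M, N, O and P, which include many widely expressed regulators of growth and metabolism, 12 of 17 members lay above both medians. Within this block FoxN and FoxP had 2 of 4 members each above both. In the other forkhead subfamilies, which hold mostly regulators of particular tissues, 3 of 16 did, namely Foxd3, Foxl2 and Foxq1. The rule left out Foxa1, Foxa2, Foxa3 and Foxh1, which are also outside that block. All of them lay above both medians, Foxa3 the lowest at 96.4 and 107.6, so the share of 3 of 16 depends on the rule. The member nearest above the medians was Sox18, with signals of 129.5 and 87.4, and the nearest below both were Sox10 (71.3 and 60.1) and Sox9 (33.2 and 76.7).

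**Figure D1:**
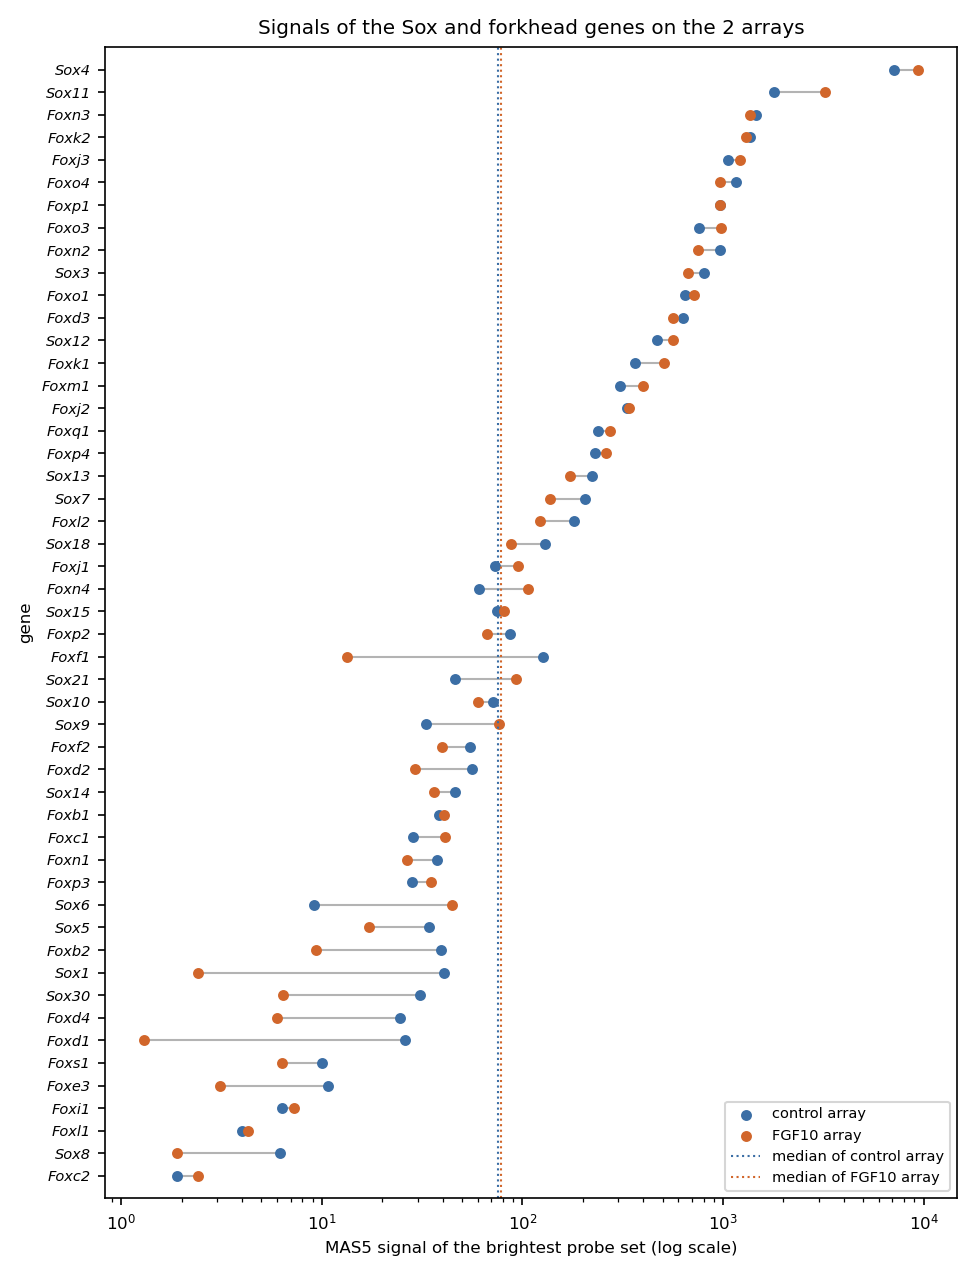
MAS5 signal of each member's brightest probe set on a log axis, with the control array in blue, the FGF10 array in orange and dotted lines at the array medians of 75.7 and 77.9. The 22 genes from Sox18 upward lie right of both lines, and the widest gaps between arrays are among genes with a signal left of them.

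The ratio was read for the 26 members whose mean signal over both arrays was at least 76.35, the median over all probe sets. Of these, 2 (7.69%) were at least 1.5-fold higher with FGF10, Sox11 and Foxn4, where 5.41% of all 11122 genes passing the filter were. Another 3 (11.5%) were at least 1.5-fold lower, Sox7, Sox18 and Foxl2, where 4.86% of all genes were. The other 21 lay within 1.5-fold. No member passed 2-fold, as 1.32% of all genes did upward and 1.29% downward. The members' median was 0.03, with 13 above and 13 below 0, and the median over all genes was -0.03. The 8 Sox genes ran from -0.61 to 0.80 with a median of -0.12, and the 18 Fox genes from -0.60 to 0.78 with a median of 0.06. The shares past 1.5-fold rest on these 5 genes. Among genes of like signal the SD of ratios was 0.47 for Sox7 and Foxl2 and 0.60 for Sox18. The share of 4.86% is over genes of all signals. Without centring or with an offset added to the signals, 0 members were at least 1.5-fold lower. Foxn4 passed the filter through its FGF10 signal, and with low signals raised to the filter level 1 member, Sox11, was past 1.5-fold upward.

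**Figure D2:**
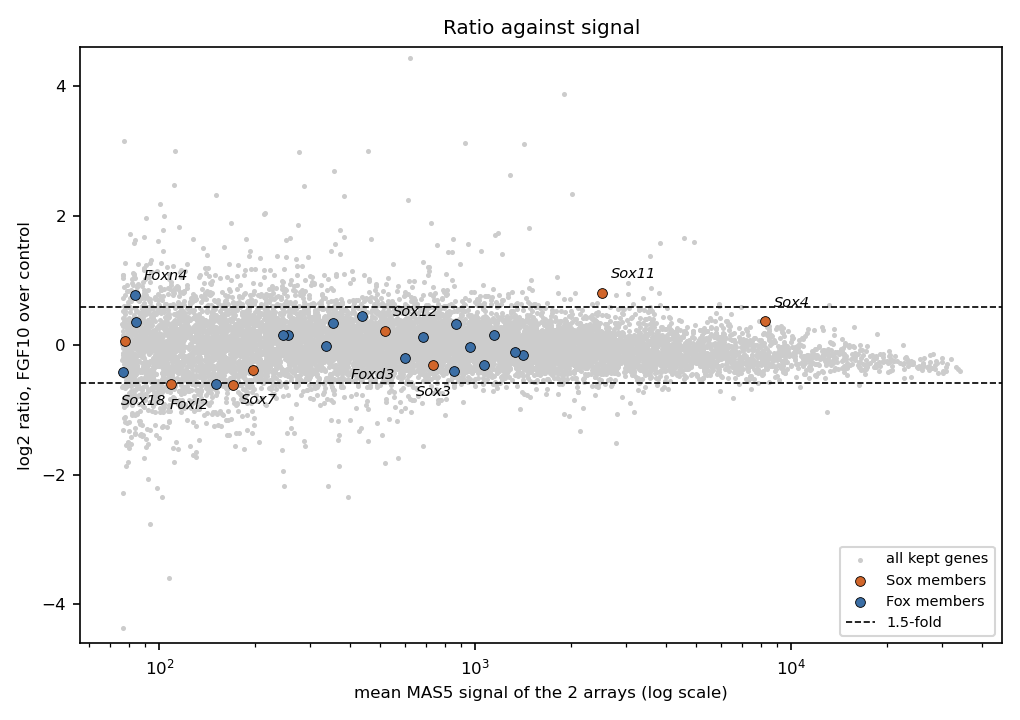
Log2 ratio of FGF10 over control against the mean signal of the 2 arrays on a log axis, with all 11122 genes in grey, Sox members in orange, Fox members in blue and dashed lines at 1.5-fold. Sox11 lies above the line at a bright signal, whereas Foxn4 above it and Sox7, Sox18 and Foxl2 just past the lower line are dim.

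SoxC proteins are activators found in many progenitor cells, and all 3 of their genes lay above both array medians. Sox11, which acts in neural and mesenchymal progenitors, went from a control signal of 1806 to 3229 with FGF10, 1.75-fold higher (0.80). Its other probe sets went from 1378 to 2410 (0.77), 429 to 883 (1.01), 447 to 617 (0.43), 435 to 586 (0.39) and 361 to 444 (0.27). All 6 probe sets of Sox11 were thus higher on the FGF10 array, with 3 of them past 1.5-fold. Genes of a signal like that of Sox11 had ratios with an SD of 0.26. Sox4, a relative with wide expression in embryonic progenitors, went from 7104 to 9414 (0.37). Its 4 other probe sets that passed the filter gave 0.53, 0.15, 0.34 and 0.63, so all 5 were higher though the brightest was within 1.5-fold. Sox12 went from 471 to 562 (0.22) and from 121 to 151 on its second probe set (0.29). In a whole-aggregate sample, more cells of a type and more RNA per cell cannot be told apart.

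SoxB1 factors and Foxd3 are regulators of the epiblast. Sox3, which overlaps in function with Sox2 in epiblast and neural progenitors, went from 801 to 666 (-0.30) on its brightest probe set and from 135 to 109 (-0.34) on the other. Foxd3, which is needed to maintain the epiblast, went from 632 to 563 (-0.20) on its only probe set. Both genes were lower on the FGF10 array by less than 1.5-fold, and their ratios are within the SD of genes of like signal, 0.32 and 0.40. Sox1, the earliest SoxB1 marker of the neural plate, was below both medians, with signals of 40.7 and 2.4, and 2 SoxB2 genes, Sox14 (46.2 and 36.2) and Sox21 (46.2 and 92.8), were below the filter. Both probe sets of Sox21 were below the filter and went in opposite directions. Among 11 measured partner factors of SoxB1 and SoxC proteins, the median was 0.16, with 1 gene past 1.5-fold upward and 2 downward, beside 5.41% and 4.86% of all genes. The higher one was Zic2 (0.59), a zinc finger factor of epiblast and neural plate, at the edge of the limit: 0 genes were past it upward after quantile or loess normalization, with an offset or without _x_at and _s_at probe sets. The lower ones were Pou3f1, a POU factor of the epiblast, from 4967 to 3192 (-0.67), and the eye and forebrain regulator Pax6, from 101 to 53.6 (-0.95), whose FGF10 signal is under the filter level and which was within 1.5-fold with that signal raised to it. Of 8 neural markers, 3 could be measured, and Pax6 was the one past 1.5-fold.

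The SoxF genes Sox7 and Sox18 were both lower with FGF10. Sox7, a factor of primitive endoderm and early vessels, went from 205 to 137, 1.53-fold lower (-0.61). Sox18, a regulator of vessel and lymphatic development, went from 129.5 to 87.4, 1.52-fold lower (-0.60). The third gene of the subfamily, the endoderm factor Sox17, went the other way, from 655 to 1075 (0.68). Each of the lower pair was read by a single probe set above the filter, and among genes of like signal the SD of ratios was 0.47 for Sox7 and 0.60 for Sox18. Their size is at the edge of the 1.5-fold limit. Without centring the ratios were -0.58 and -0.57, and with an offset added to the signals they were -0.55 and -0.51, which leaves neither past it.

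Markers of the cell types in which SoxF genes act were read beside them. Of 10 endothelial markers 4 passed the filter, 0 higher and 2 lower by 1.5-fold, beside 5.41% and 4.86% of all genes. The lower ones were the blood and vessel regulator Tal1 (-1.03) and the angiopoietin receptor Tek (-0.77). Both had FGF10 signals under the filter level, and with low signals raised to it 1 of the 4 was lower. Over 11 alternatives, which change how many markers are measured, the count lower ran from 0 to 7 and the count higher from 0 to 1. The summed signal of all 10 went from 1425 to 949.9 with FGF10, and Tie1 was near 0 at 4.2 and 2.2. Of 10 markers of primitive and parietal endoderm, all passed the filter, with a median of -0.22 and summed signals of 21477 and 19452. Dab2, which encodes an endocytic adaptor, was lower (-0.59), whereas Gata6 (0.96) and the receptor gene Pdgfra (1.07) were higher. The second measured probe sets of Gata6 and Pdgfra gave 1.18 and 1.17. Dab2 is at the edge of the limit, and 0 of these markers were past it downward without centring, after quantile or loess normalization, without a filter, with the filter at the 75th percentile or on second probe sets. With the filter at the 75th percentile 6 markers were left, and 0 were past it upward, since that filter removes Gata6 and Pdgfra. The part of these cell types in the Sox7 and Sox18 values was not tested.

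Of the other Sox genes, Sox13 lay above both medians. Sox13, a SoxD gene that modulates Wnt signalling through Tcf proteins, went from 222 to 174 (-0.39) on its only probe set. Sox15, expressed in stem cells and able to bind with Pou5f1, was close to the medians on both arrays at 75 and 80.6 (0.07). The SoxE genes of the neural crest and cartilage were below both medians, with Sox8 at 6.2 and 1.9, Sox9 at 33.2 and 76.7 and Sox10 at 71.3 and 60.1. The SoxD genes Sox5 (34.2 and 17.1) and Sox6 (9.1 and 44.7) and the germ cell gene Sox30 (30.9 and 6.4) were also below them. Of 15 partner factors of the neural crest, 7 were measured, 2 of them past 1.5-fold upward and 0 downward, beside 5.41% and 4.86% of all genes. The upward count was 0 with the filter at the 75th percentile, where 1 gene was left, 1 with the filter on both arrays and 6 without a filter. The 2 genes were Tfap2c, which is active in the epiblast and germ line too, from 123 to 397 (1.66), and Snai1, a repressor of epithelial genes, from 61 to 194 (1.63), the control signal of the last lying under the filter level.

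In the forkhead subfamilies J, K, M, N, O and P, 15 members passed the filter with a median of 0.12. Of these, 1 (6.67%) was past 1.5-fold upward and 0 downward, beside 5.41% and 4.86% of all genes. Foxp1, a repressor with a splice form found in stem cells, had signals of 961 and 965 (-0.03), and its 6 measured probe sets ran from -0.41 to 0.05. Foxk2, a regulator of metabolism and autophagy, went from 1364 to 1302 (-0.10), with its 5 probe sets from -0.10 to 0.18. Foxn3, a repressor linked to the cell cycle, went from 1468 to 1359 (-0.15). Its 4 probe sets ran from -0.81 to 0.03, the lowest being the dimmest at 354 and 207. Foxn2 went from 963 to 750 (-0.40) on 1 measured probe set.

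Foxj3 went from 1065 to 1222 (0.16) and on its second measured probe set from 207 to 282 (0.41). Foxj2 was at 333 and 338 (-0.01). Foxp4 went from 229 to 261 (0.15), with 3 probe sets from -0.33 to 0.31. Foxk1, which shares metabolic roles with Foxk2, went from 365 to 508 (0.44) on its brightest probe set but from 97.8 to 58.7 (-0.77) on the other, so its direction is not settled. Foxn4, a factor of retinal and spinal interneuron progenitors, was the 1 gene here past 1.5-fold, from 60.7 to 106.5 (0.78). Its control signal is under the filter level, and raised to that level the ratio was 0.45, within 1.5-fold. Genes of like signal had an SD of 0.67.

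Foxm1 drives genes of mitosis. It went from 307 to 400 (0.35) on its brightest probe set, with 0.02 and 0.13 on its other measured ones. Of its 13 measured mitotic target genes 0 were past 1.5-fold in either direction on the brightest probe set. Of all genes, 5.41% were past it upward and 4.86% downward. The median of the targets was -0.06, and the 3 measured probe sets of Nek2 ran from -0.11 to 0.89. Plk1, a mitotic kinase, was at 0.10, Aurkb at 0.40 and Cdc25b at -0.23.

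Foxj1, the master regulator of motile cilia, which is active in the node of the embryo, went from 73 to 95.3 (0.35), above the median of the FGF10 array alone. Of 17 genes of the node and of cilia, 4 were measured, with a median of -0.40. Rfx3, a partner of Foxj1 in ciliated cells, went from 448 to 1239 (1.43), with 0.70 on a dimmer probe set. Rsph1, which encodes a part of the axoneme's radial spoke, went from 207 to 105 (-1.01). Dnaic1 (-0.43) and Tekt1 (-0.37) were also lower, within 1.5-fold. Foxp2, a gene of the nervous system and lung, went from 86.6 to 66.8 (-0.41) on its brightest probe set, while its 5 dimmer probe sets, all below the filter, were higher on the FGF10 array.

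All 3 FoxO genes on the array lay above both medians and within 1.5-fold. Foxo1, which supports pluripotency genes in stem cells, went from 646 to 720 (0.12), with 0.07 and -0.21 on its other measured probe sets. Foxo3 went from 758 to 975 (0.33), with 0.33 and -0.11 on the others, and Foxo4 from 1163 to 966 (-0.30). Their measured probe sets disagreed in sign for Foxo1 and Foxo3. Genes of the kinases through which growth factors act on FoxO proteins, with their subunits such as Pik3r1 and Rictor, were also read. Of 13 measured, 0 were past 1.5-fold on the brightest probe set, beside 5.41% of all genes upward and 4.86% downward. The median of the 13 was -0.18. Sgk1, a kinase that phosphorylates FoxO, went from 7695 to 9332 (0.24), Pdpk1 was at 0.18 and Pik3cd at -0.48. Akt1 gave -0.18 on its brightest probe set, but its 3 probe sets ran up to 1.13. The 5 probe sets of Rictor ran from -0.09 to 0.65.

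More of the genes known as FoxO targets were higher than lower. Of 19 measured, 6 (31.6%) passed 1.5-fold upward and 1 (5.26%) downward, and their median was 0.24, beside 5.41% and 4.86% of all genes and a median of -0.03. Ccng2, an atypical cyclin of cells leaving the cycle, went from 391 to 975 (1.28), with 0.91 on a dimmer probe set. Pink1, a kinase of mitochondrial quality control, went from 229 to 493 (1.07), with 0.44 on the other. Sesn3, an inhibitor of mTORC1 signalling, went from 572 to 1056 (0.85), with 0.70 on the other. The insulin receptor gene Insr went from 328 to 595 (0.83), the cyclin-dependent kinase inhibitor Cdkn1b from 565 to 1023 (0.82) and the apoptosis gene Bcl2l11 from 1315 to 2344 (0.80). The 5 probe sets of Bcl2l11 ran from 0.03 to 0.80. Fbxo32, a ubiquitin ligase gene of muscle wasting, was the lower one, from 166 to 94.2 (-0.85), and the antioxidant genes Cat (0.22) and Sod2 (-0.06) were within 1.5-fold. The count of higher targets was 5 to 7 over the 11 alternatives tried. The list was chosen with earlier results of these data known, so its shares are a description, and a FoxO response was not tested. These genes answer to other regulators too, and the array measures RNA, not FoxO protein or its place in the cell.

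**Figure D3:**
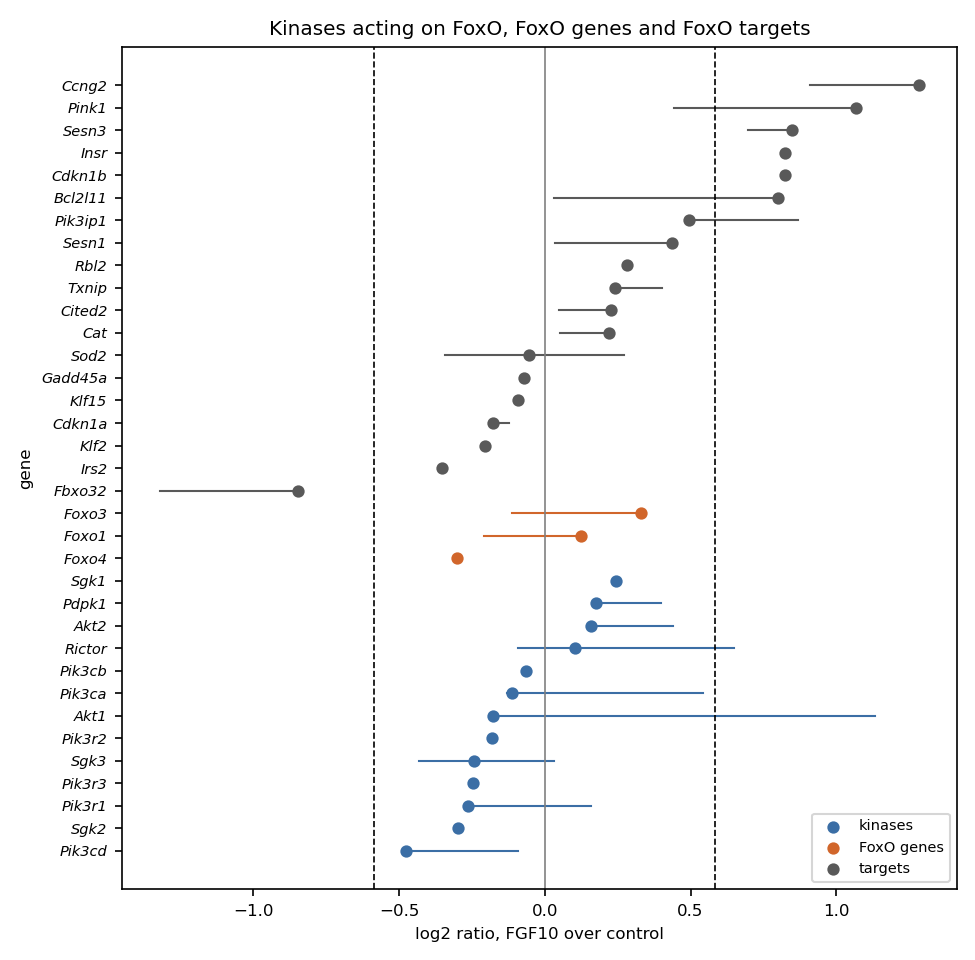
Log2 ratio of FGF10 over control for genes of kinases acting on FoxO and their subunits (blue), the FoxO genes (orange) and FoxO target genes (grey). Points are the brightest probe set, lines span the gene's measured probe sets and dashed lines are at 1.5-fold. All kinase and FoxO points lie between the dashed lines, while 6 target points lie right of them and 1 left.

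Among the forkhead genes of particular tissues, Foxl2, a factor of ovary and pituitary, went from 180 to 122, 1.51-fold lower (-0.60), at the edge of the limit. It was -0.56 without centring, -0.53 with an offset and -0.58 without the signal filter. Foxq1, a factor of the hair shaft and stomach lining, went from 239 to 273 (0.16) and from 161 to 211 (0.36) on its second probe set. Foxf1, a regulator of lateral and extraembryonic mesoderm, was above the median on the control array alone, with signals of 127 and 13.4. Its mean signal was under the filter, and with the low signal raised to 76.35 the ratio was -0.77. Its other probe set was below the filter level on both arrays, at 73 and 37.2. Foxf2 (54.6 and 39.9), the paraxial and cardiac mesoderm genes Foxc1 (28.6 and 41.1) and Foxc2 (1.9 and 2.4), and Foxd1 (26.1 and 1.3), Foxd2 (56.3 and 29) and Foxd4 (24.6 and 6) were below both medians. So were Foxb1, Foxb2, Foxe3, Foxi1, Foxl1, Foxn1, Foxp3 and Foxs1, whose signals were at most 40.8. No ratio is given for members below both medians, where a signal may not be above background.

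Groucho proteins are corepressors recruited by several forkhead and Sox-associated complexes. Of 5 measured, Tle3 went from 1222 to 1924 (0.62), with its 4 probe sets from 0.08 to 1.02, and Tle6 from 110 to 54.3 (-1.05), its FGF10 signal lying under the filter level, and with it raised 0 of the 5 were past 1.5-fold downward. Tle4 gave -0.41 on its brightest probe set and up to 0.14 on others, Tle1 at -0.10 and Tle5 at 0.05.

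The probe sets of a gene can be set against each other as a check within the arrays. Of the 14 members with at least 2 measured probe sets, all probe sets had the same sign in 7: Sox3, Sox4, Sox11, Sox12, Foxj3, Foxm1 and Foxq1. These are 4 of 4 Sox genes and 3 of 10 Fox genes, and several of the Fox genes had ratios close to 0, where sign carries little. Over the 2 brightest probe sets the sign agreed in 11 of 14 members (78.6%), beside 65.7% of the 5213 genes with at least 2. The SD of a gene's ratio between its 2 brightest probe sets, divided by the square root of 2, was 0.27 over those genes. That SD is blind to variation between cultures.

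**Figure D4:**
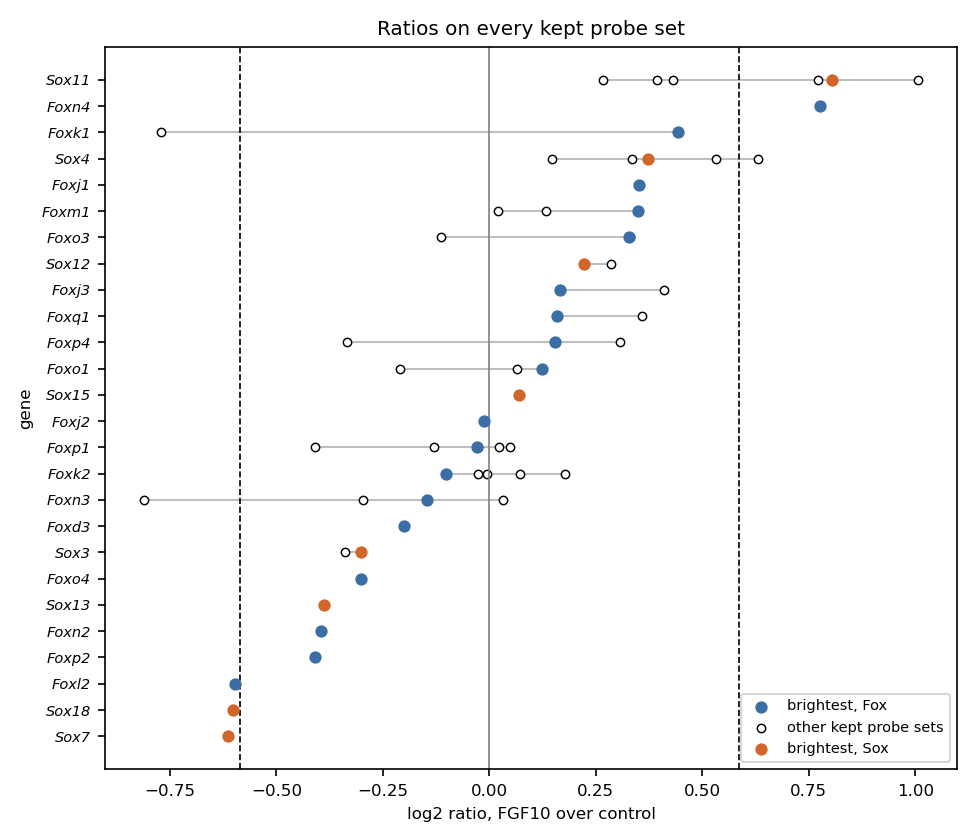
Log2 ratio of FGF10 over control on every probe set that passed the signal filter, for the 26 measured members ordered by the ratio of the brightest one (filled; orange for Sox, blue for Fox, others open), with dashed lines at 1.5-fold. The probe sets of Sox11, Sox4 and Sox12 all lie right of 0, and those of Foxk1, Foxp4, Foxo1 and Foxo3 lie on both sides.

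The 6 family genes left out of the list ran from -0.0026 to 3.10 in ratio, all above the signal filter, with Sox2 near 0 and Foxa2 the highest at 3.10. All members measured here lay between -0.61 and 0.80.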

How the data were processed

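Total RNA of 2 samples, labelled with biotin, was hybridised to 1 Affymetrix expression array each, and groups follow the agent given in the labels. The authors deposited 1 intensity per probe set on a linear scale, the MAS5 signal, per the submitters' processing notes, which give no version or settings. MAS5 subtracts mismatch probes, so dim values carry more noise. Each array's mean without its lowest and highest 2% is 500.003, so the arrays were scaled to a shared target, which removes a difference in total RNA. No detection calls were used, and 0 value columns were left unused.

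Names came from the platform annotation, leaving out 64 chip controls. Of the rest, 34945 had 1 gene, 932 several and 9160 none, and 2 probe sets naming a member together with other genes were left out. All 50 members had a gene identifier found in RefSeq for GRCm38.p6, with 0 symbols changed, and RefSeq has 57 genes of the rule; the other 7 were not analysed here. The labels name no genome build. The log2 ratio had no offset and was centred on the median of kept probe sets (0.03). A probe set was kept if its mean signal reached 76.35. Like signal means the same of 20 equal bins of kept genes. Differences were counted at 1.5-fold and 2-fold with no test.

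Every member above an array median is named. Of the lists, the genes with the largest ratios are named, and other genes named were picked with their values in view. The members and lists were chosen with earlier results of these data known. The procedure was tested on simulated data with planted changes of at least 2-fold. That test did not check how often genes without a change pass 1.5-fold. Python 3.11.15 with pandas 2.3.3, numpy 2.4.6, statsmodels 0.14.6 and matplotlib 3.10.9 was used.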

Additional observations from a re-analysis of the deposited data

How the results depend on the processing

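The alternatives were no centring, quantile normalization, loess, an offset at the 25th percentile, other signal filters, other probe sets per gene, raised low signals and other thresholds. The count of members at least 1.5-fold higher (2) became 5 without a signal filter, where all 50 members count, 1 with a filter at the 75th percentile, with a filter on both arrays or with low signals raised, and 0 at 2-fold. The count at least 1.5-fold lower (3) became 0 without centring, with the offset, with the filter at the 75th percentile or at 2-fold, 6 at 1.3-fold and 13 without a signal filter. The count above both medians (22) became 13 at the 75th percentile of each array. The members' median ran from -0.11 without a filter to 0.06 without centring. Of 273 values of the 28 named members, 269 moved by less than 0.27, the SD between probe sets, and none of the 5 genes past 1.5-fold changed sign in the alternatives where it had a value. The 4 that moved were Foxk1 on its second probe set (-0.77) and by the mean over probe sets (-0.16), Foxm1 on its second probe set (0.02) and Foxn4 with low signals raised (0.45). Foxf1 and Sox21, whose mean signal is under the filter, had values in 2 of the alternatives alone. With low signals raised they went from -3.28 to -0.77 and from 0.97 to 0.25, moves that are not among the 273. Sox11 was past 1.5-fold in all 11 alternatives, from 0.61 to 0.86. Sox7 and Sox18 were so in 8 of 10 and Foxl2 in 7 of 10. Each of these 3 has 1 measured probe set, so the second probe set and the mean over probe sets repeat its main value. Such repeats, also for other members with 1 measured probe set, are counted among the alternatives and the 273 values. No paired analysis was possible because each group has 1 array.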
